A study of Mus musculus with 6 samples.

Results

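The channel and junction genes examined here were the connexin genes Gja1, Gja3, Gjb2 and Gjb6, the aquaporin genes Mip, Aqp1 and Aqp5, and Lim2. These 8 genes were chosen by name for their place in lens cell membranes, with earlier results of these data known. The deposited table held 7 of the 8 among its 13931 genes. Lim2 had no row under its symbol or its identifier, ENSMUSG00000093639, so it has no value below and was not analysed here. There were 3 Control and 3 Celf1cKO RNA-seq libraries, each made from 2 pooled whole lenses of mice at P0, the day of birth. Celf1cKO mice carried 1 Celf1lacZKI germline knockout allele and 1 Celf1flox allele with loxP sites around exon 5, together with the Pax6GFPCre driver. This driver expresses Cre in the lens placode from E9.5 and also in the pancreatic lineage. Control mice were Celf1lacZKI/+ by their labels and thus had the same germline knockout allele, but by the study's methods controls were as a rule Cre-negative Celf1flox mice. Which genotype the Control lenses had was not settled, and all differences below depend on it. The mice were on a mixed C57BL/6J and FVB background.

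CELF1 is an RNA-binding protein that binds GU-rich stretches of mRNA and acts on splicing, decay and translation. The lens has no blood supply of its own, and its cells are coupled by gap junctions, each made of connexin hexamers in the facing membranes, through which ions and small metabolites pass. Gja3 (Cx46) encodes a fiber cell connexin and Gja1 (Cx43) the main connexin of the lens epithelium. Mip (AQP0) encodes the most abundant membrane protein of fiber cells, a water channel that also takes part in fiber cell adhesion, while Aqp1 and Aqp5 encode water channels found in the epithelium and in epithelium and fibers, respectively. Changes in Gja3, Mip and Lim2 are known to lead to cataracts.

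The libraries held between 40694454 and 44387151 reads, worked back from the deposited values. The targeted gene, Celf1, was at 9.95, 9.94 and 9.34 log2 CPM in Control libraries 1, 2 and 3 and at 8.93, 7.66 and 7.83 in Celf1cKO libraries 1, 2 and 3. It was reduced in Celf1cKO lenses with a log2 fold-change of -1.60 (SE 0.335, limma adjusted p = 0.0269), and Celf1cKO library 1 kept the most Celf1 mRNA. Of 11 lens fiber markers in the table, such as Bfsp1 and the beta-crystallin genes, the summed level was 150286 to 176031 CPM in Control and 113328 to 126079 CPM in Celf1cKO, so markers of the labelled tissue were abundant, and 4 of the 11 were reduced. The 5 lens epithelium markers, among them Foxe3 and Pdgfra, which were reduced, summed to 409, 442 and 456 CPM in Control and to 357, 142 and 251 CPM in Celf1cKO. Endothelium markers (8 of 8 in the table) summed to 100.9 to 126 CPM in Control and to 122, 23.5 and 58.2 CPM in Celf1cKO, with no marker called. Corneal markers (3 of 10 in the table) summed to 22.1 to 25.0 CPM in Control and 29.6 to 33.7 CPM in Celf1cKO. Nearly all of this was Perp, at 21.4 to 23.0 and 29.2 to 33.4 CPM. The other 2, Krt4 and Aqp3, had log2 fold-changes of -1.21 and -1.70, and none of the 3 was called. The corneal keratin genes Krt12, Krt5 and Krt14 had no row. Markers of iris and ciliary epithelium (7 of 9 in the table), retina (5 of 8), erythroid cells (1 of 7), macrophages (8 of 8) and mesenchyme (4 of 8) each summed to at most 34.3 CPM in a library, and 1 of them, the neuronal gene Elavl4, was called, as reduced. In whole lenses, fewer cells of a type and less RNA per cell cannot be told apart.

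A gene was called reduced or elevated when its limma adjusted p (Benjamini-Hochberg over all 13931 genes) was below 0.05, its log2 fold-change exceeded 0.58 in size and its average log2 CPM in the table was above 1. Gja3 and Gjb6 were reduced in Celf1cKO lenses, by 2.19-fold and 9.68-fold, and no member was elevated. These 2 of 7 members stand beside 2.63% of all genes called reduced and 7.39% called in either direction. As the members were chosen with earlier results of these data known, the count is no test of the set. Gjb6 passed the level threshold through its Control libraries alone, and by the plain mean of the 6 libraries 1 member, Gja3, was called. With the replicate number as a block the same 2 were called reduced, beside 3.75% of all genes called reduced and 9.18% called in either direction. Of the 7 members, 6 lay above the level threshold and Gjb2 lay below it, so Gjb2 could not be called. The median log2 fold-change was -0.44 over the 7 members and -0.04 over all genes. For 3 members, Gja3, Gjb6 and Mip, all Celf1cKO libraries lay below all Control libraries, a pattern found in 17% of all genes, while groups that do not overlap in either direction made up 36.5%.

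**Figure D1:**
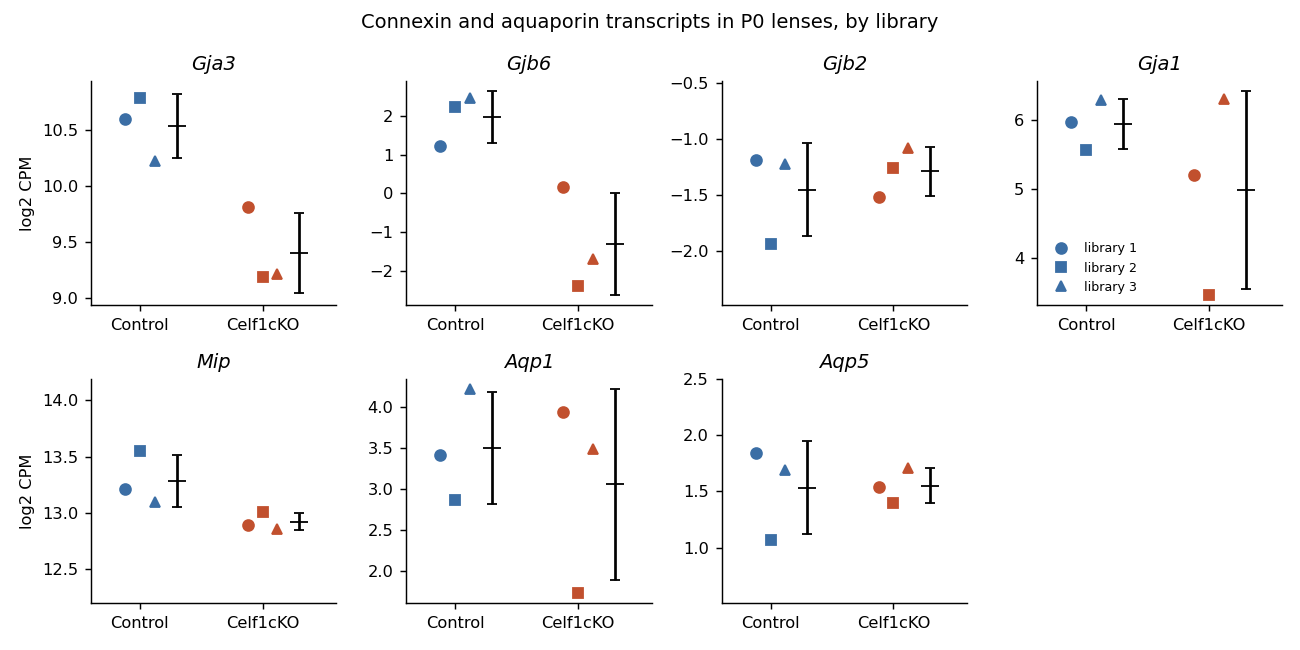
Level of each measured connexin and aquaporin gene in log2 CPM (y axis, a separate scale in each panel) in the 3 Control (blue) and 3 Celf1cKO (orange) lens libraries; circles, squares and triangles are libraries 1, 2 and 3, and the bars are mean ± SD (n = 3). Gja3, Gjb6 and Mip show no overlap between the groups, and Celf1cKO library 2 is the lowest of the 6 for Gja1 and Aqp1.

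Gja3 (ENSMUSG00000048582), the fiber cell connexin Cx46, lies on the minus strand at chr14:57034460-57058100 (GRCm38). Control libraries 1, 2 and 3 held 10.60, 10.79 and 10.22 log2 CPM of Gja3. In Celf1cKO libraries 1, 2 and 3 it was 9.81, 9.19 and 9.21 log2 CPM. Every Celf1cKO library was below the lowest Control library, and Celf1cKO library 1, which kept the most Celf1 mRNA, was the nearest to Control. Its difference from the other Celf1cKO libraries was not particular to Gja3, as 1916 genes were called without it against 1030 with it. A relation of Gja3 or Gjb6 to the Celf1 level was not tested. The group means were 10.54 ± 0.29 and 9.40 ± 0.36 (SD, n = 3). The log2 fold-change was -1.13 (SE 0.209, 95% confidence interval -1.62 to -0.64, limma adjusted p = 0.0193). The counts behind it were high, from 28327 to 65584 reads per library, so counting error was small beside the spread between libraries. The call rested on few libraries. It was lost without Control library 1, Control library 2, Celf1cKO library 2 or Celf1cKO library 3, with limma adjusted p of 0.0621, 0.0752, 0.0553 and 0.0913, while the log2 fold-change stayed between -1.34 and -1.01 over the 6 libraries left out in turn. The summed fiber markers were also lower in every Celf1cKO library than in every Control library. Most of that sum came from beta-crystallin genes, with Cryba1 alone at 88127 of 160551 CPM in Control library 1. Of the 11 markers, 4 were called reduced. Among those not called, Crybb1, Maf, Hsf4 and Cryba1 had log2 fold-changes of -0.63, -0.49, -0.41 and -0.32. Prox1 and Crygs, also not called, were at -0.02 and -0.14, and Bfsp2 was at 0.20. Bfsp2 held 387 CPM in Control library 3, against 2570 and 3012 CPM in Control libraries 1 and 2. With libraries left out in turn, the Bfsp2 log2 fold-change ran from -0.75 to 0.73. The part of fiber markers in the Gja3 values was not tested.

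Gjb6 (ENSMUSG00000040055) encodes Cx30, a beta connexin best known from the supporting cells of the inner ear, and lies on the same strand at chr14:57123303-57133611. It was scarce in these lenses. Control libraries 1, 2 and 3 held 87, 173 and 216 reads of it, or 1.21, 2.23 and 2.47 log2 CPM. Celf1cKO libraries 1, 2 and 3 held 46, 7 and 13 reads, or 0.16, -2.39 and -1.69 log2 CPM. The exact 95% Poisson interval, which covers counting error only, was 33.7 to 61.4 reads for Celf1cKO library 1 and 69.7 to 107 reads for Control library 1, so even the nearest libraries of the groups did not overlap. As for Gja3, Celf1cKO library 1 was the highest of the Celf1cKO libraries. The means were 1.97 ± 0.67 and -1.30 ± 1.32 log2 CPM (SD, n = 3), and the log2 fold-change was -3.28 (SE 0.669, 95% confidence interval -4.84 to -1.71, limma adjusted p = 0.0252). Gjb6 passed the level threshold through its Control libraries. Its average log2 CPM in the table was 1.22, whereas the plain mean of the 6 libraries was 0.33, below the threshold of 1. Its limma adjusted p rose to 0.0974 without Control library 2, 0.0865 without Control library 3, 0.0548 without Celf1cKO library 2 and 0.102 without Celf1cKO library 3, at log2 fold-changes of -3.14, -3.03, -2.73 and -3.09.

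Gjb2 (ENSMUSG00000046352) encodes Cx26, which forms mixed channels with Cx30 in the inner ear, and lies between Gja3 and Gjb6 at chr14:57098600-57104702, also on the minus strand. It was near the limit of detection, with 15, 8 and 15 reads in Control and 13, 18 and 21 reads in Celf1cKO. On the log2 CPM scale these were -1.19, -1.93 and -1.22 in Control and -1.52, -1.26 and -1.08 in Celf1cKO, and the groups overlapped. The log2 fold-change of Gjb2 was 0.16 (95% confidence interval -0.72 to 1.04, limma adjusted p = 0.806), so a change of up to about the size of that interval was not detectable at this depth. The log2 ratio of Gjb6 to Gjb2 within a library, which does not depend on how libraries are scaled, was 2.40, 4.16 and 3.69 in Control and 1.68, -1.13 and -0.61 in Celf1cKO. Each Control library thus held more reads of Gjb6 than of Gjb2, and Celf1cKO libraries 2 and 3 held fewer. The exact 95% Poisson intervals of Gjb6 and Gjb2 overlapped in these Celf1cKO libraries. They were 2.81 to 14.4 and 10.7 to 28.4 reads in library 2, and 6.92 to 22.2 and 13.0 to 32.1 reads in library 3. The difference was -3.44 (two-sided exact permutation p = 0.1, which is the lowest value 3 against 3 libraries can give, and 0.25 after Benjamini-Hochberg adjustment over 5 ratios).

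The gap between Gja3 and Gjb2 is 40.5 kb and that between Gjb2 and Gjb6 18.6 kb. Of the 19 annotated genes within 250 kb of Gja3 or Gjb6, 7 were in the table. Gja3 and Gjb6 were reduced and none was elevated. Their outer neighbours, the zinc finger genes Zmym5 and Zmym2 and the crystallin-lambda gene Cryl1, had log2 fold-changes of 0.41, -0.10 and -0.54 (limma adjusted p = 0.0837, 0.508 and 0.525), and the pseudogene Gm8971 had 0.17 (0.778). The confidence intervals of Cryl1 and Gm8971, whose average log2 CPM were -0.77 and -1.13, were wide.

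**Figure D2:**
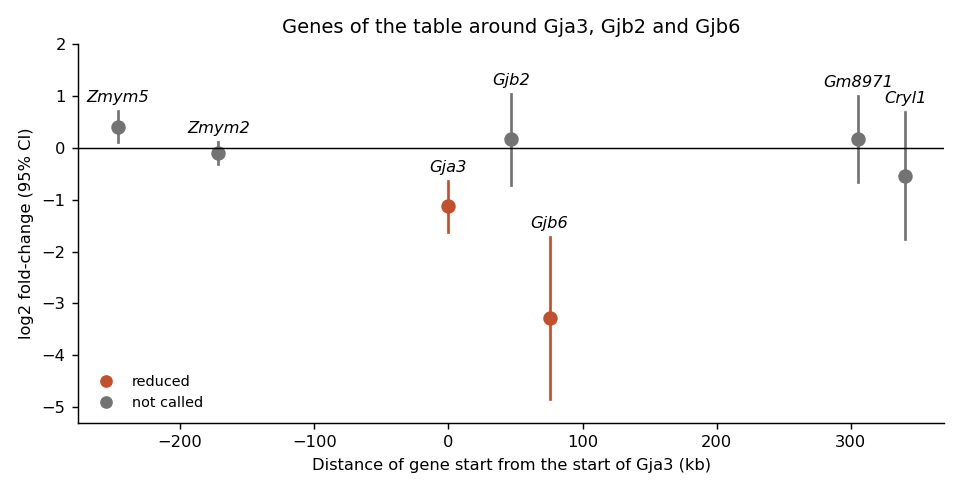
Log2 fold-change of Celf1cKO over Control (y axis, points, with 95% confidence interval as lines) for the genes of the table around the 3 clustered connexin genes, by the distance of the gene start from the start of Gja3 in kb (x axis). Gja3 (-1.13) and Gjb6 (-3.28), in orange, were reduced and lie either side of Gjb2 (0.16), whose interval crosses 0.

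The 250 bases before the RefSeq start of each of the 3 clustered genes are shown because the genes are neighbours on 1 strand and the outer pair, Gja3 and Gjb6, was reduced (GRCm38.p6, minus strand, read 5′ to 3′, so that the last base lies next to the start). Capitals mark matches on either strand to the TATA box letters TATAAA, the GC box letters GGGCGG or a half-site of the MAF recognition element, TGCTGA. For Gja3 the window is chr14:57058031-57058280, for Gjb2 chr14:57104703-57104952 and for Gjb6 chr14:57133612-57133861.
Gja3: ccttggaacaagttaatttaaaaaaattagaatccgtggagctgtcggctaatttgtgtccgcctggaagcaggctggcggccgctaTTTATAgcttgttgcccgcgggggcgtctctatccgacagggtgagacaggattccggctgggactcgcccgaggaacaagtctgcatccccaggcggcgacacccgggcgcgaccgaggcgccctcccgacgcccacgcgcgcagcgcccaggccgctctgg
Gjb2: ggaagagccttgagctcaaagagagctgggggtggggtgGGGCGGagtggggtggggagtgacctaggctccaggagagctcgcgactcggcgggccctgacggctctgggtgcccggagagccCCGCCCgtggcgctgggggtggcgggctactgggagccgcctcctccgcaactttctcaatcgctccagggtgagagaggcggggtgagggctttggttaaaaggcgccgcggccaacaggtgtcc
Gjb6: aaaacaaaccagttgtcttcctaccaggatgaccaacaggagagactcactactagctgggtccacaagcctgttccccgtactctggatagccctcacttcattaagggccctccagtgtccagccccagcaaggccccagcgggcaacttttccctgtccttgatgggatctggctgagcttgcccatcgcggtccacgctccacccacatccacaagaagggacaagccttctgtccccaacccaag
The Gja3 window held 1 TATAAA on the opposite strand, the Gjb2 window 2 GGGCGG, and the Gjb6 window none of the 3 motifs. Of 32851 RefSeq promoters of this length, 12.4% held TATAAA, 32.7% GGGCGG and 16.1% TGCTGA. Gja3 has a second RefSeq start, at a window of chr14:57057724-57057973, with none of the motifs. GC content was 62.8%, 69.2% and 56.8% in the windows shown for Gja3, Gjb2 and Gjb6. A match describes the letters in these windows and is not a measured site.

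Reads of the clustered connexins could be told apart. The longest run of bases shared by the longest transcripts of any pair of the 7 members was 20, for Gjb2 with Gjb6, whereas the reads were 150 bases long. Since CELF1 binds GU-rich RNA, the same transcripts were searched on the sense strand for the GU-rich motif spelled TGTTTGT, whose matches may overlap. Of the longest transcripts of 13928 genes, 40.4% held it. Among the members it was found once, in Aqp1, and not in the other 6. The stretch is shown with the match in capitals, beginning at base 1785 of the Aqp1 transcript.
Aqp1: gtgTGTTTGTtaa
Gja3 and Gjb6, the reduced members, held no match in these transcripts, which says only that these letters are not in them.

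Gja1 (ENSMUSG00000050953, chr10:56377330-56402513, plus strand), the epithelial connexin Cx43, varied among the Celf1cKO libraries more than between the groups. It was at 5.97, 5.57 and 6.29 log2 CPM in Control and at 5.20, 3.46 and 6.30 in Celf1cKO. Celf1cKO library 2 was the lowest of the 6, while Celf1cKO library 3 was level with Control library 3, the highest Control library. The log2 fold-change of Gja1 was -0.95 (SE 0.631, 95% confidence interval -2.43 to 0.52, limma adjusted p = 0.346), and it was -0.19 without Celf1cKO library 2 and -1.61 without Celf1cKO library 3 (limma adjusted p = 0.787 and 0.138). The within-library ratio of Gja3 to Gja1 gave no separation, with a difference of -0.18 (exact permutation test, two-sided p = 0.9, adjusted p = 0.9).

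Aqp1 (ENSMUSG00000004655, chr6:55336432-55348555, plus strand), a water channel of the lens epithelium and also of endothelium, showed the same low library. It was at 3.42, 2.87 and 4.22 log2 CPM in Control and at 3.94, 1.74 and 3.49 in Celf1cKO, where library 2 was again the lowest of the 6. The log2 fold-change of Aqp1 was -0.44 (95% confidence interval -1.81 to 0.92, limma adjusted p = 0.650), and it changed sign, to 0.22, without Celf1cKO library 2. In that library the epithelium markers summed to 142 CPM and the endothelium markers to 23.5 CPM, the lowest of the 6 libraries for each. In Celf1cKO library 3, Gja1, at 78.8 CPM, was level with Control library 3 (78.4 CPM), the highest Control library. Aqp1 in that library, at 11.2 CPM, was above Control libraries 1 and 2 (10.6 and 7.26 CPM). The summed epithelium and endothelium markers of Celf1cKO library 3, at 251 and 58.2 CPM, were below every Control library. The part of these markers in the Gja1 and Aqp1 values was not tested.

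**Figure D3:**
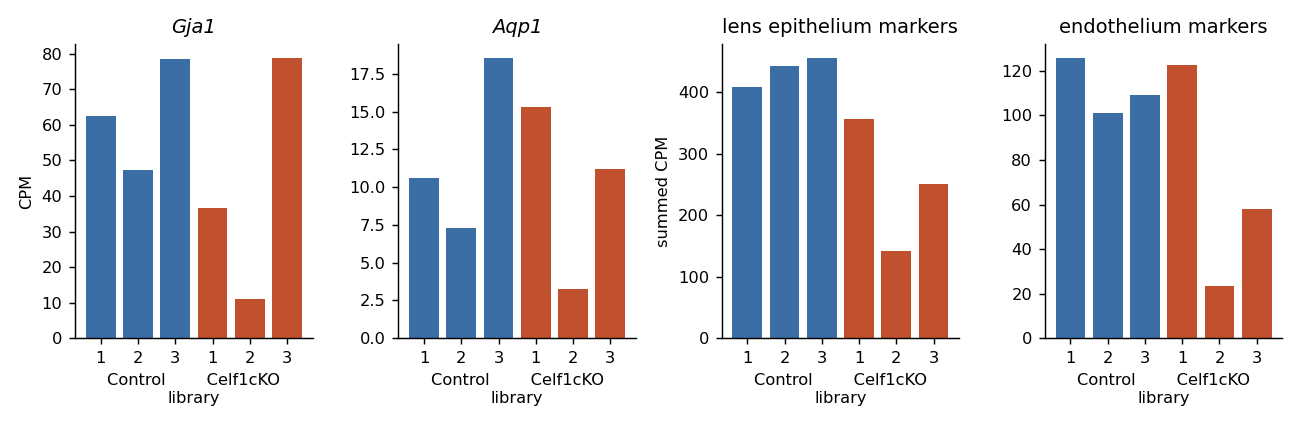
Level of Gja1 and Aqp1 in CPM and summed CPM of the 5 lens epithelium and 8 endothelium markers (y axes, from 0) in Control (blue) and Celf1cKO (orange) libraries 1, 2 and 3. Celf1cKO library 2 has the lowest bar in every panel, with 142 CPM of epithelium and 23.5 CPM of endothelium markers. The Gja1 bar of Celf1cKO library 3 is level with that of Control library 3, while the bars of Celf1cKO library 3 for both marker sums are below every Control bar.

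Mip (ENSMUSG00000025389, chr10:128225838-128231812, plus strand), the fiber water channel, was the most abundant of the members. It was at 13.21, 13.55 and 13.10 log2 CPM in Control and at 12.89, 13.00 and 12.86 in Celf1cKO, from 326382 to 444778 reads. The groups did not overlap, but the distance between their nearest libraries was small. The means were 13.28 ± 0.23 and 12.92 ± 0.08 (SD, n = 3), with a log2 fold-change of -0.37 (SE 0.166, 95% confidence interval -0.76 to 0.02), and Mip was not called (limma adjusted p = 0.187). Its direction held in 17 of 18 alternative settings and reversed in 1, quantile normalization. That scaling gave a log2 fold-change of 0.40 (limma adjusted p = 0.0453), below the size threshold. Levels can be compared between genes only per length, here as CPM per kb of the joined exons of each gene. Mip held between 99.7 and 99.9% of the summed CPM per kb of the 7 aquaporin genes in each library. The within-library log2 ratio of Gja3 to Mip was -2.61, -2.76 and -2.87 in Control and -3.08, -3.81 and -3.65 in Celf1cKO. The groups did not overlap, and the difference was -0.76 (exact permutation test, two-sided p = 0.1, adjusted p = 0.25).

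Aqp5 (ENSMUSG00000044217, chr15:99590782-99594829, plus strand), a water channel of lens epithelium and fibers, was low and close to the same in the groups. It was at 1.85, 1.06 and 1.69 log2 CPM in Control and at 1.54, 1.40 and 1.71 in Celf1cKO, from 76 to 159 reads. All 3 Celf1cKO libraries lay within the range of Control. The log2 fold-change of Aqp5 was 0.02 (95% confidence interval -0.59 to 0.63, limma adjusted p = 0.971), and the sign of so small a value changed with the scaling. The ratios of Mip to Aqp5 and of Aqp1 to Aqp5 differed between the groups by -0.38 and -0.46 on the log2 scale, within the spread between libraries (exact permutation test, two-sided p = 0.4 and 0.6, adjusted p = 0.667 and 0.75).

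Per kb of joined exons, the order in Control lenses was Mip at 4692 ± 787 CPM per kb, Gja3 at 508 ± 97.3, Gja1 at 6.12 ± 1.52, Aqp1 at 4.62 ± 2.20, Gjb6 at 1.55 ± 0.62, Aqp5 at 1.12 ± 0.30 and Gjb2 at 0.137 ± 0.041 (SD, n = 3). The ranges of Gja1 and Aqp1 overlapped, but within each Control library Gja1 was the higher (6.09 against 4.04, 4.61 against 2.77 and 7.64 against 7.06). Those of Gjb6 and Aqp5 also overlapped, and Gjb6 was the lower in Control library 1 and the higher in Control libraries 2 and 3. The other neighbours did not overlap. In Celf1cKO lenses Mip was at 3610 ± 190, Gja3 at 234 ± 61.0 and Aqp5 at 1.11 ± 0.12 CPM per kb. Gjb6, at 0.184 ± 0.189, came below Aqp5 and overlapped with Gjb2, at 0.152 ± 0.026. Gja1 at 4.11 ± 3.34 and Aqp1 at 3.78 ± 2.33 overlapped again, and Gja1 was the higher in Celf1cKO library 3 only. On the length of the longest transcript the order of the means was the same. However, Gja1 and Aqp1 then no longer overlapped in Control, and Aqp1 and Aqp5 overlapped in Celf1cKO. By that length Gja1 was also the higher within each Celf1cKO library (9.43 against 5.83, 2.83 against 1.25 and 20.3 against 4.26).

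Among 18 other connexin and pannexin genes, 6 were in the table, 1 was elevated and none was reduced. The elevated gene was Panx1, which forms single-membrane channels that release ATP. It was at 1.996, 2.26 and 2.32 log2 CPM in Control and at 2.88, 3.42 and 3.19 in Celf1cKO, and the groups did not overlap. The log2 fold-change of Panx1 was 0.97 (SE 0.194, limma adjusted p = 0.0235), beside 4.77% of all genes called elevated. It kept its call without Celf1cKO library 1 and lost it without any other library, with limma adjusted p of 0.0698, 0.0764 and 0.0582 without Control libraries 1, 2 and 3 and 0.0772 and 0.112 without Celf1cKO libraries 2 and 3. Gjc1 (Cx45) had a log2 fold-change of -1.10 (limma adjusted p = 0.183) and was not called, but it was called reduced with the replicate number as a block (limma adjusted p = 0.0317) and without Celf1cKO library 1 (0.0342, at a log2 fold-change of -1.58). Gje1 (Cx23), another fiber connexin and the highest of the 6, was at 7.82, 8.36 and 7.98 log2 CPM in Control and at 7.99, 8.56 and 8.16 in Celf1cKO, with a log2 fold-change of 0.18 (95% confidence interval -0.25 to 0.62, limma adjusted p = 0.550). The log2 fold-changes of Gja4, Gja5 and Panx2 were -1.02, 0.31 and -0.61, and none was called. The median over the 6 genes was -0.21.

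Of 9 other aquaporin genes, 4 were in the table and none was called. Aqp4 was the highest of them, at a log2 fold-change of -0.09 (limma adjusted p = 0.815). Aqp3, a glycerol channel of surface epithelia, had the largest difference, a log2 fold-change of -1.70 (limma adjusted p = 0.0993), and its average log2 CPM of -0.44 put it below the level threshold. The log2 fold-changes of Aqp8 and Aqp11 were 0.12 and 0.13.

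**Figure D4:**
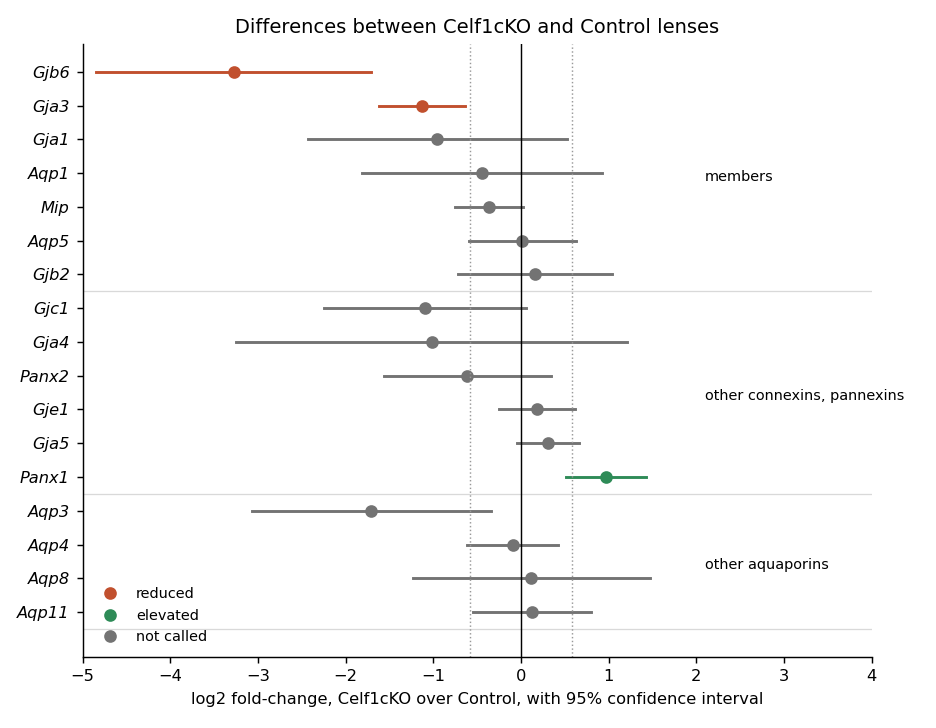
Log2 fold-change of Celf1cKO over Control (x axis, points, with 95% confidence interval as lines) for the 7 measured connexins and aquaporins (top), the other connexins and pannexins and the other aquaporins; dotted lines mark 0.58 on either side of 0. Gjb6 (-3.28) and Gja3 (-1.13) were reduced, Panx1 (0.97) was elevated, and the intervals of the other members include 0.

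Among 17 genes for proteins that bind or modify these channels, 15 were in the table, 1 was reduced and 2 were elevated, with a median log2 fold-change of 0.02. The reduced gene was Bfsp1, a beaded filament protein that binds Mip, with a log2 fold-change of -1.47 (limma adjusted p = 0.0139). Calm2, which encodes a calcium sensor that gates Mip and connexin channels, was elevated with a log2 fold-change of 0.72 (limma adjusted p = 0.0160), while Calm3 was at 0.02 (0.907). Src, a kinase that phosphorylates the Gja1 protein, was elevated at 0.68 (0.0141). Bfsp1, Calm2 and Src were not called without Control library 2 (limma adjusted p = 0.0634, 0.0620 and 0.0629) or without Celf1cKO library 3 (0.0784, 0.0836 and 0.0874). Calm2 also lost its call without Control library 3 (0.0543). The scaffold genes Tjp1 and Dlg1 and the ligase gene Nedd4 had log2 fold-changes of -0.15, -0.08 and 0.06, and none was called. Cav1, Cav2 and Pakap had log2 fold-changes of -1.64, -1.02 and -0.31 and were not called either, with Cav2 below the level threshold. The groups did not overlap for 5 of the 15 genes, Cav1 and Pakap among them, beside 36.5% of all genes.

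Lim2 belongs to the PMP22, EMP and claudin family of membrane proteins. Of 29 other genes of this family, 14 were in the table, 7 of them above the level threshold, and none was called. At an unadjusted p below 0.05 there were 3, Cldn12, Cldn14 and Cldnd1, which were also the 3 whose groups did not overlap, against 4171 of the 13931 genes at such a p and 36.5% of all genes without overlap. Cldn14 had a log2 fold-change of -2.45 (limma adjusted p = 0.0495) at an average log2 CPM of -1.80, and Cldnd1 had one of 0.55 (0.0306), below the size threshold. Pmp22 itself, the highest of the family, was at 0.09 (0.738).

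Over the 6 libraries, the genes whose centred log2 CPM lay nearest to that of Gja3, among 10639 genes above the level threshold, were Dnajb2, Mettl27 and Pgam2. Their root-mean-square differences from it were 0.079, 0.103 and 0.108 log2 units. The genes nearest to Gjb6 were Rsad2, Zfyve28 and Cfap99, at 0.354, 0.385 and 0.393 log2 units. Each of the 6 was lower in every Celf1cKO library than in every Control library, and each was highest, among the Celf1cKO libraries, in library 1. Gja3 and Gjb6 have both traits, and the genes were picked for likeness to them over the same 6 libraries, so the traits largely follow from the choice. The pattern over 6 libraries includes the difference between the groups and describes likeness only.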

How the data were processed

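RNA was extracted from pooled P0 lenses and sequenced as paired 150-base reads from strand-specific libraries. The authors aligned reads to GRCm38.p6 with STAR 2.7.8a, kept uniquely mapped reads, counted them with featureCounts 2.0.0, kept genes above 0.2 CPM and normalized with edgeR. The deposited values are log2 CPM per library with a small prior count. The authors' own columns of fold-changes, F score, p-value and FDR were not used, and their average log2 CPM served only as level threshold. Group means by the authors were not used.

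The members and the lists of related genes and markers were chosen with earlier results of these data known. Genes named were the members, Celf1, the called and highest genes of each list, neighbours within 250 kb and the 3 nearest genes by pattern, and other list genes named above were picked after their values were seen. limma 3.58.1 (R 4.3.3) with a variance trend, tested on simulated data, compared the groups over all 13931 genes, with no filter and no pseudocount of its own. Since the values are log2 CPM, no count model was the main test. Fold changes are on the deposited log2 scale, and those of low genes are understated by the prior count. The paper does not say that Control and Celf1cKO libraries were paired, but their labels share replicate numbers, and same-numbered libraries deviated from their group means together (correlations of 0.302, 0.417 and 0.348 over 10640 genes), so a fit with the replicate number as a block was an alternative. Whole reads were worked back from the steps between values, and 100% were whole within 0.1 of a read. At this depth 3 reads correspond to 0.0609 to 0.0807 CPM. Nothing says that libraries came from separate litters, so p-values measure the spread between these libraries. Motifs were counted after the values had been seen. Some related genes are not reported here. A planned ratio of Lim2 to Mip could not be made. Positions and exon lengths come from GENCODE M21 (GRCm38), which matched 13928 of the 13931 identifiers, and promoters from RefSeq (GRCm38.p6), which held all 8 genes. Ratios were tested with scipy 1.17.1 in Python 3.11.15, and figures were drawn with matplotlib 3.10.9.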

Additional observations from a re-analysis of the deposited data

How the results depend on the processing

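With 3 libraries a group, single libraries decided the calls. Against 1030 genes called, leaving out each library in turn gave 1 to 1916 genes (1 without Control library 2 or without Celf1cKO library 3), no variance trend gave 421 and scaling by total reads, which moved the median of expressed genes to 0.23 on the log2 scale, gave 1870. A test on the reads worked back from the values (limma voom) gave 1052, with Gja3 and Gjb6 called reduced. Of the members, 2 were called, against 0 to 2 with libraries left out, 0 with no variance trend (limma adjusted p = 0.0566 for Gja3 and 0.0601 for Gjb6) and 1, Gja3, when the plain mean log2 CPM had to exceed 1. Of the other listed genes 4 were called, Panx1, Bfsp1, Calm2 and Src, against 0 to 8 with libraries left out. The fit with the replicate number as a block gave 1279 genes called (9.18% of those tested), and its limma adjusted p was 0.0194 for Gja3 and 0.0335 for Gjb6. Gjc1 was the gene whose call it changed among the members and listed genes. Over 18 alternatives the log2 fold-change ran from -1.34 to -0.91 for Gja3 and from -4.01 to -1.77 for Gjb6, the smallest size of the latter with a pseudocount of 1. Celf1 itself lost its call with no variance trend and without 5 of the 6 libraries (limma adjusted p up to 0.108), at log2 fold-changes of -1.80 to -1.36.

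Direction changed for some values. Mip, at -0.37 in the report, was at 0.40 under quantile normalization and Aqp5 at -0.0062 with median centring and -0.0024 when rescaled without crystallins. With libraries left out, the log2 fold-change ran from -0.078 (without Control library 2) to 0.29 for Gjb2, from -0.89 to 0.22 (without Celf1cKO library 2) for Aqp1 and from -0.22 to 0.17 for Aqp5, which was below 0 without Control library 2 or Celf1cKO library 3. The within-library difference then ran from -0.83 to 0.58 for Gja3 over Gja1 and from -0.91 to 0.12 for Aqp1 over Aqp5. The cause of these changes was not tested. Gjb2 and Gjb6 were the members with the fewest reads, 7 to 216 a library.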
